A study of Rattus norvegicus with 30 samples.

Results

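Macrophage markers were followed in cultured rat hepatocytes given WY-14643. The set holds 10 genes that mark Kupffer cells, the resident macrophages of the liver, or macrophages more broadly: C1qa, C1qb, C1qc, Cd68, Cd5l, Cd163, Csf1r, Clec4f, Lyz2 and Aif1. Its members are the 12 probe sets, of 31099 on the array, whose only gene symbol in the platform annotation is one of these names, so 10 of the 14218 genes that can be named in this way. Of them 10 probe sets, 1 for each gene, were among the 21282 that passed a filter on signal. WY-14643, also called pirinixic acid, is a synthetic agonist of PPARα, a nuclear receptor that turns on fatty acid oxidation in rodent liver. The cells were bought as frozen hepatocytes from male Sprague Dawley rats. They were thawed, spun at low speed through Percoll, plated on collagen and overlaid with Matrigel, and total RNA of single wells was read on Affymetrix arrays. The 6 groups were vehicle, 8 µM WY-14643 and 200 µM WY-14643 for 24 h, and the same 3 for 48 h, each with n = 5 wells. The vehicle was 1% DMSO. The labels give the dosing concentrates as 1% DMSO too, which leaves the final DMSO level in treated wells unclear. The ages of the animals are not given. The wells are called biological replicates and no label says that the animals differed, so errors and p-values measure the spread between wells, which may be technical. The culture was made as a hepatocyte culture and no macrophages are said to have been added or sorted, which limits it as a model of these cells.

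Kupffer cells line the liver sinusoids, take up particles and damaged cells from the blood, and make the recognition protein of the classical complement pathway, C1q. Their identity is kept up by signals from neighbouring hepatocytes, stellate cells and endothelium, and by the growth factor receptor encoded by Csf1r. Part of them can come along when hepatocytes are prepared from whole liver. In RNA of a whole well, fewer cells of a type and less RNA per cell cannot be told apart.

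The cultures carried a strong hepatocyte signal, and macrophage markers passed the signal filter only in part. Albumin (Alb) lay between 56265 and 84929 signal units over the 30 arrays. All 10 members had a probe set past the filter, where 11545 of 14218 genes of the series had one. So did only 8 of 29 other macrophage markers, while 13 were below it and 8 had no probe set of their own. Of 23 genes of other tissues 11 passed, 11 were below it and 1 had no probe set. Passing the filter alone therefore does not show that a cell type was present. Below the filter were the defining markers Adgre1, the F4/80 antigen, with signals between 4.46 and 140 on all arrays, and Itgam, the αM integrin, between 15.9 and 64. The leukocyte antigen Ptprc (CD45) was also below it. In the list of 24 leukocyte genes that holds it, 15 passed, 6 were below and 3 had no probe set of their own. Probe sets differ in brightness and in what they bind unspecifically, and 25 probe sets of 22 genes of other tissues, such as pituitary hormones and lens crystallins, had median signals between 14.4 and 1369. Levels of different genes were therefore not set against each other, and the results are differences of each gene between groups of wells. The label of the set is kept as the name of a gene list, without a claim that each signal came from a Kupffer cell.

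One array stood apart. On the array of 48 h vehicle replicate 4 the median signal was 765, against 385 to 439 on the 29 others, and its median correlation across probe sets with its own group was 0.867, against 0.963 to 0.971. Values without it stand beside the members' results whose call, sign or size changed with it. For β-actin the signal of the 3′ probe set over that of the 5′ one, a measure of RNA length and labelling, averaged 2.86 ± 0.276 in vehicle, 3.10 ± 0.213 at 8 µM and 3.31 ± 0.166 at 200 µM after 24 h. After 48 h it was 2.62 ± 0.313 in vehicle, 3.26 ± 0.418 at 8 µM and 3.10 ± 0.201 at 200 µM (SD, n = 5). It was higher with treatment, where some members fell, and in vehicle it was lower at 48 h than at 24 h, where members fell as well. At 48 h it was highest at 8 µM, where Lyz2 fell and Cd68 rose. The part of this ratio in the members' differences was not tested. For GAPDH this ratio averaged between 1.15 and 1.19 in the 6 groups.

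Parts of the set fell with time in culture and with 200 µM for 48 h, while at 8 µM Lyz2 fell and Cd68 rose. The text uses rose and fell only for a limma adjusted p below 0.05, over all 21282 probe sets. With 200 µM for 48 h 4 of the 10 tested probe sets fell, none rose and all 10 estimates were negative, where 13.8% of all probe sets fell. Their median log2 fold change was -0.49, against -0.0718 over all probe sets. The 4 were C1qa, C1qb, Cd5l and Lyz2. Without 48 h vehicle replicate 4 the estimate of Aif1 was 0.27, and the other 9 were negative. With 8 µM for 48 h, 1 member (Lyz2) fell where 15.7% of all probe sets fell, and 1 (Cd68) rose where 12.8% rose. The median of the members was -0.0704 there, against -0.0956 over all. After 24 h 2 members (Cd68 and Lyz2) fell at 200 µM where 10.1% of all probe sets fell, with a median of -0.426 against -0.0206. At 8 µM for 24 h only Lyz2 fell, 1 of 10 where 10.5% of all fell, with a median of -0.0635 against -0.0303. Both doses of a time were set against the same 5 vehicle wells, so these comparisons are not independent of each other. Without 48 h vehicle replicate 4, 6 of 10 members fell with 200 µM at 48 h, where 14.8% of all probe sets fell, and 4 of 10 at 24 h, where 12.8% fell. That array entered no 24 h mean, but the spread of all 6 groups is pooled in the fit. When only the 10 arrays of 200 µM and vehicle at 48 h were fitted, C1qb (adjusted p = 0.0809) and Cd5l (adjusted p = 0.0714) did not pass. At 8 µM the share of members that fell, 1 of 10 at each time, was near or below the background and is no result about the set as a whole.

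**Figure D1:**
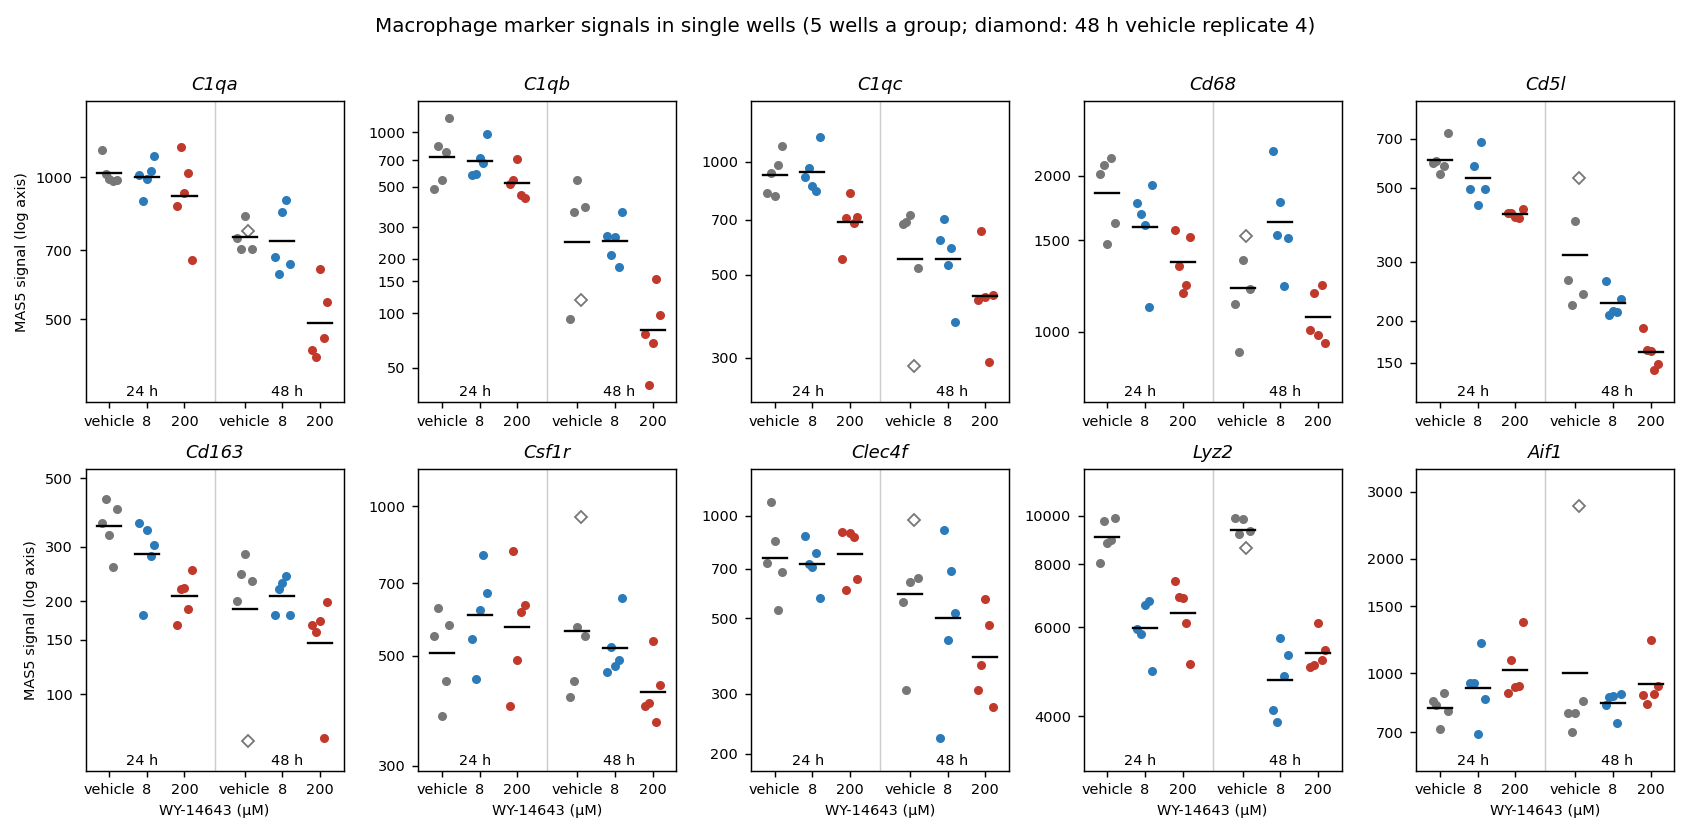
Signal of the 10 tested macrophage markers in each of the 30 wells (vertical log axis, MAS5 signal), by WY-14643 concentration and time. Points are wells, bars are group means taken on the log2(signal + 16) scale, and the diamond is 48 h vehicle replicate 4. C1qb has its lowest bar in the 200 µM wells at 48 h (6.60 on that log2 scale), while Lyz2 is lower in every treated well than in any vehicle well of the same time.

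Part of the set was also lower at 48 h than at 24 h without any compound. In vehicle wells 5 of 10 members fell at 48 h relative to 24 h, where 3.42% of all probe sets fell, and the median was -0.523 against 0.0436 over all probe sets. These were C1qa, C1qb, C1qc, Cd68 and Cd5l. In 8 µM wells 5 of 10 fell with time where 4.25% of all fell, namely C1qa, C1qb, C1qc, Cd5l and Lyz2. In 200 µM wells 5 of 10 fell where 3.43% of all fell, namely C1qa, C1qb, C1qc, Cd5l and Clec4f. No member rose with time in any of the 3 arms. A fall with time was not particular to the members. Of 11 hepatocyte genes 4 fell with time in vehicle, 5 at 8 µM and 4 at 200 µM, and none rose. Their medians were -0.181, -0.087 and -0.169. In vehicle 3 of 6 genes of classical complement and C1q binding fell as well, against 2 of 15 leukocyte genes and 1 of 7 sinusoidal endothelial genes. Fewer than 5 of the 48 h wells of C1qb, Cd5l and Cd163 were above the signal filter of 281.361. These genes passed it through their 24 h wells, so the filter itself favoured lower values of them at 48 h. When only the 10 vehicle arrays were fitted, no member passed the test of time in vehicle, and the adjusted p of the 5 genes then lay between 0.0572 and 0.165. Without 48 h vehicle replicate 4, 4 of 10 fell where 3.34% of all fell.

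Separation of the wells was counted as well, as all 5 wells of one group lying below all 5 of the other. With 200 µM at 48 h, C1qa, Cd5l and Lyz2 were separated downward, 3 of 10 members, where 8.19% of all probe sets were. With 200 µM at 24 h it was Cd5l, Cd163 and Lyz2, where 9.17% were. With 8 µM it was Lyz2 alone at both times, where 9.70% of all probe sets were separated at 24 h and 8.85% at 48 h. Between the doses, C1qc and Cd5l were lower at 200 µM in every well at 24 h, where 2.76% of all probe sets were, and C1qb and Cd5l at 48 h, where 3.18% were. With time in vehicle, C1qa, C1qc and Cd5l were separated downward, where 2.68% were. In 8 µM wells it was C1qb, C1qc and Cd5l, where 5.05% were, and in 200 µM wells C1qa, C1qb, Cd5l and Clec4f, where 4.68% were. Cd5l was separated in each of these comparisons except 8 µM over vehicle at both times. The comparisons share groups of wells. For C1qb and Cd5l the signal filter also favoured lower values at 48 h, as said above. No 200 µM well of Cd163 at 24 h was above that filter, and the gene passed it through wells of other groups. The filter therefore also favoured the separation of Cd163 from vehicle at 24 h.

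**Figure D2:**
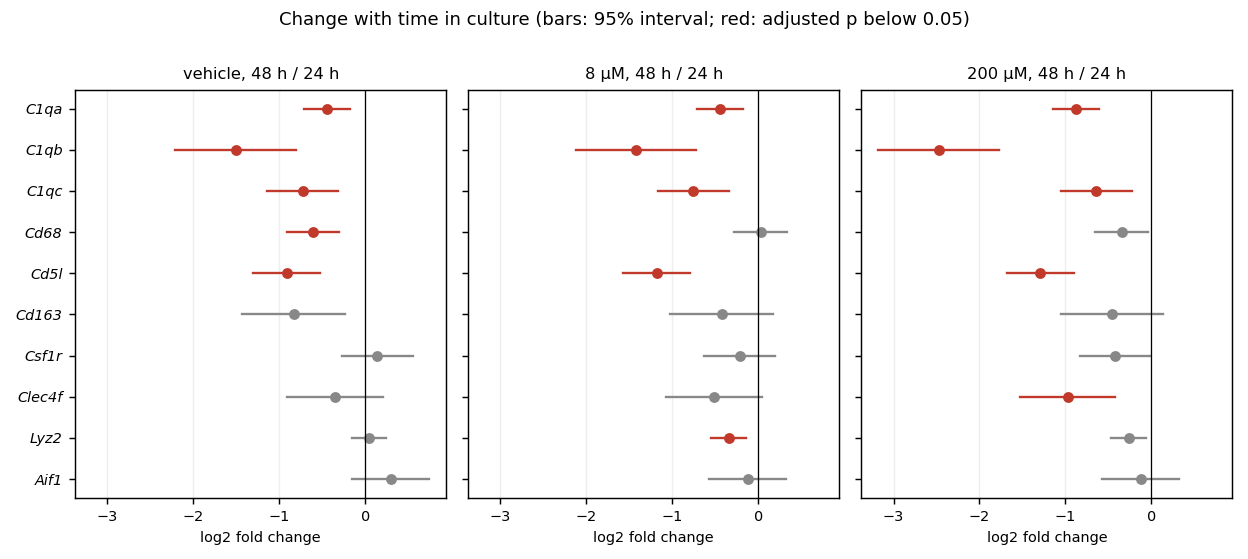
Log2 fold change of each marker at 48 h over 24 h (horizontal axis) in vehicle, 8 µM and 200 µM wells, with 95% intervals. Red marks an adjusted p below 0.05. C1qb has the most negative estimate in each panel (-1.51, -1.42 and -2.48), and Csf1r and Aif1 are grey in each.

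C1qa, C1qb and C1qc encode the 3 chains of C1q, the recognition subunit that binds immune complexes and dying cells. In the rat they are neighbours on chromosome 5, all within 17658 bases (154402276 to 154419933, GRCr8). C1qb had signals of 93.3, 361, 547, 118 and 387 in vehicle wells at 48 h, 267, 209.8, 266, 179.6 and 365 in 8 µM wells and 76.4, 40.1, 68.1, 155 and 98.4 in 200 µM wells. The 200 µM wells were all below the 8 µM wells, and 3 of them were below every vehicle well. At 24 h it had 489.7, 847, 543, 778 and 1198 in vehicle, 579.7, 592, 726, 675 and 980.0 at 8 µM and 521, 543, 709.6, 449 and 435 at 200 µM. The groups overlapped at 24 h. C1qb fell by 1.44 ± 0.34 (log2, SE) with 200 µM at 48 h (adjusted p = 0.0016) and was at 0.02 (adjusted p = 0.977) with 8 µM, a 95% interval of -0.68 to 0.72. The 8 µM estimate without 48 h vehicle replicate 4 was -0.22 (adjusted p = 0.691). At 200 µM over 8 µM its log2 fold change was -1.46 ± 0.34 (adjusted p = 0.0119). With time its log2 fold change was -1.51 (adjusted p = 0.00495) in vehicle, -1.42 (adjusted p = 0.00534) at 8 µM and -2.48 (adjusted p = 4.38e-06) at 200 µM. The change of the 200 µM effect between the times was -0.97 (adjusted p = 0.446), which did not pass.

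C1qa moved in the same pattern over a smaller range. It had 745, 705, 826, 768 and 705 in vehicle wells at 48 h, 679, 625, 845, 895 and 656 in 8 µM wells and 431, 417, 639, 457 and 546 in 200 µM wells. All 200 µM wells lay below all vehicle wells, and C1qa fell by 0.59 ± 0.13 (adjusted p = 0.000738), while the 8 µM estimate was -0.03 with an interval of -0.30 to 0.24. At 24 h its means were 1023 ± 66.1 in vehicle, 1005 ± 78.5 at 8 µM and 929 ± 183 at 200 µM, and neither dose passed the test. Between the doses at 48 h it fell by 0.56 at 200 µM over 8 µM (adjusted p = 0.0112). Its change with time was -0.44 (adjusted p = 0.0366) in vehicle and -0.87 (adjusted p = 1.54e-05) at 200 µM. The vehicle call was lost when any 1 of 8 of the 10 vehicle arrays was left out (all but 48 h replicates 3 and 4), with adjusted p between 0.052 and 0.0921. In 8 µM wells C1qa fell with time by 0.44 (adjusted p = 0.0261), a call lost without 48 h replicate 1, 2 or 5 or 24 h replicate 4 or 5 of that dose, with adjusted p between 0.0561 and 0.0858.

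C1qc had 682, 691, 724, 285 and 519.5 in vehicle wells at 48 h, 619, 704, 529.6, 589 and 374 in 8 µM wells and 429, 655, 437, 293 and 441 in 200 µM wells. Vehicle replicate 4 was the lowest of all 30 wells. The 200 µM effect was -0.32 (adjusted p = 0.261) with that array and -0.55 (adjusted p = 0.0148) without it, so that it passed only without it. The 8 µM estimate was 0.00 with that array and -0.23 (adjusted p = 0.368) without it. At 24 h its means were 930.1 ± 119 in vehicle, 948 ± 131 at 8 µM and 697 ± 99 at 200 µM, and every 200 µM well lay below every 8 µM well, with -0.44 (adjusted p = 0.419) for that difference. With time C1qc changed by -0.73 (adjusted p = 0.0237) in vehicle, -0.75 (adjusted p = 0.013) at 8 µM and -0.64 (adjusted p = 0.0438) at 200 µM. The vehicle call was lost without 48 h vehicle replicate 4, where the estimate was -0.50 (adjusted p = 0.077). It was also lost when 24 h vehicle replicate 5 was left out (adjusted p = 0.0721). The 8 µM call was lost without 48 h replicate 5 of that dose (adjusted p = 0.0567). The 200 µM call was lost when any 1 of 12 arrays was left out (adjusted p between 0.05 and 0.169).

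Cd5l encodes a secreted scavenger receptor family protein, AIM, made by tissue macrophages and known in mouse liver as a Kupffer cell product. Its tested probe set had 265, 223, 397, 533 and 241 in vehicle wells at 48 h, 263, 209, 215, 213 and 232 in 8 µM wells and 191, 164, 163, 143 and 148 in 200 µM wells. The 200 µM wells did not overlap with the 8 µM wells or with the vehicle wells, and vehicle replicates 3 and 4 were the highest at that time. At 24 h it had 590.4, 599, 549.8, 580.0 and 726 in vehicle, 496, 579, 443, 683 and 494 at 8 µM and 419.7, 419.5, 409.5, 406 and 431 at 200 µM, and the 200 µM wells again lay below both other groups. Cd5l fell by 0.90 ± 0.19 with 200 µM at 48 h (adjusted p = 0.000446). At 8 µM the estimate was -0.45 (adjusted p = 0.0785), which passed when vehicle replicate 2 (adjusted p = 0.0284) or 5 (adjusted p = 0.04) was left out. Without vehicle replicate 4 it was -0.27 (adjusted p = 0.251). At 24 h 200 µM gave -0.52 (adjusted p = 0.053), just outside the threshold, and -0.52 (adjusted p = 0.0115) without 48 h vehicle replicate 4. It also passed without 48 h vehicle replicate 2 or 5, by adjusted p of 0.0432 and 0.0477. Over time Cd5l changed by -0.92 (adjusted p = 0.00192) in vehicle, -1.18 (adjusted p = 3.74e-05) at 8 µM and -1.29 (adjusted p = 1.22e-05) at 200 µM. Its second probe set was below the filter, with group means between 9.57 and 38.7, and is not informative here.

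Promoter windows are shown for C1qa, C1qb, Cd5l and Lyz2, the members that fell at 200 µM after 48 h, so that the regulatory letters beside the genes that moved can be read. RefSeq windows of the GRCr8 build, taken as the 250 bases before the start that the promoter table uses, matched 8 of the 10 members, and the unmatched members were C1qc and Aif1. For Lyz2, Cd163 and Csf1r that start lies inside the gene as the RefSeq gene table spans it, so that 49, 23 and 227 bases of their windows are part of the annotated gene. Both strands were searched for GAGGAA, a core bound by the macrophage factor PU.1. They were also searched for AGGTCA, the half-site of nuclear receptors such as PPARα. GAGGAA was in 5 of the 8 member windows and in 23.3% of 33469 windows of all genes. AGGTCA was in 1 of the 8, that of Clec4f, and in 14.1% of all windows. A match is a run of letters and not a shown binding site, and no match speaks only for these letters in this window. Each window runs 5′ to 3′ on the gene's own strand, and capitals mark the first motif, spelled as its reverse complement where it lies on the other strand. The positions are chr5:154419934-154420183, minus strand for C1qa, chr5:154407828-154408077, minus strand for C1qb, chr2:175088665-175088914, plus strand for Cd5l and chr7:54798012-54798261, minus strand for Lyz2.
C1qa: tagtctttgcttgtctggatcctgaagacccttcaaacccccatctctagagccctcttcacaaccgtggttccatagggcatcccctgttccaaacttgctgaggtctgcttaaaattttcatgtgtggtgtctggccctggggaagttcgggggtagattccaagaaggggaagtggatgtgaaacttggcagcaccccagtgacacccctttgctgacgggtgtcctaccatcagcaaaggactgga
C1qb: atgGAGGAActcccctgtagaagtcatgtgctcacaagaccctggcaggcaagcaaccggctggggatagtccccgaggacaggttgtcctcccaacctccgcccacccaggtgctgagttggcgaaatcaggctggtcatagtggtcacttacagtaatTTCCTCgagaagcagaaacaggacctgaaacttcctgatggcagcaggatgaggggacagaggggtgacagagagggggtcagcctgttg
Cd5l: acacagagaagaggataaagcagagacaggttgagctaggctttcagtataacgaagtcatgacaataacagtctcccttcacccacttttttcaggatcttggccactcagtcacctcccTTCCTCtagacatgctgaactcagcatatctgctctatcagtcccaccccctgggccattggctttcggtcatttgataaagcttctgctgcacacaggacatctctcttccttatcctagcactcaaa
Lyz2: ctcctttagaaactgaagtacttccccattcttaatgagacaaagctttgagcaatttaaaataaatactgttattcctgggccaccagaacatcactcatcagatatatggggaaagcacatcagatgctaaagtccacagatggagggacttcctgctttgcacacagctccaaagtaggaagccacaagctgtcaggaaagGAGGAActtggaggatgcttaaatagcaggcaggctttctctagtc
The C1qb window holds the letters beginning 247 and 90 bases before the start, the Cd5l window 129 bases before it and the Lyz2 window 46 bases before it, within the annotated gene, while the C1qa window holds none.

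Cd163, the macrophage receptor for haptoglobin bound to haemoglobin, was low and variable. It had 359, 429, 327, 259 and 397 in vehicle wells at 24 h, 359, 180.0, 339, 281 and 304 in 8 µM wells and 168, 219.7, 221, 189 and 253 in 200 µM wells. Every 200 µM well was below every vehicle well, but the estimate of -0.70 ± 0.29 did not pass (adjusted p = 0.0971). At 48 h it ranged over 70.9 to 285 in vehicle, 180.1 to 241 at 8 µM and 72.3 to 198 at 200 µM, and replicate 4 was the lowest vehicle well. Without that array the 200 µM estimates were -0.70 (adjusted p = 0.0245) at 24 h and -0.64 (adjusted p = 0.0489) at 48 h, and both passed.

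Clec4f, a C-type lectin that in rodents marks Kupffer cells, is among the more specific members for that cell. It had 557, 307, 641, 971 and 655 in vehicle wells at 48 h, 223, 907, 433, 687 and 518 in 8 µM wells and 308, 364, 571, 477 and 275 in 200 µM wells. The groups overlapped and the 200 µM estimate was -0.59 (adjusted p = 0.113), which passed without vehicle replicate 2 (adjusted p = 0.0221) and was -0.41 (adjusted p = 0.293) without vehicle replicate 4. At 24 h the means were 776 ± 213 in vehicle, 731 ± 108 at 8 µM and 782 ± 140.4 at 200 µM. Within the 200 µM arm Clec4f fell by 0.97 ± 0.27 at 48 h relative to 24 h (adjusted p = 0.0202), with every 48 h well below every 24 h well. In vehicle the change with time was -0.35 (adjusted p = 0.52), and -0.53 (adjusted p = 0.303) without 48 h vehicle replicate 4. The call at 200 µM was lost when any 1 of 4 arrays of that dose was left out (24 h replicates 1 and 3, 48 h replicates 1 and 5), with adjusted p between 0.0524 and 0.0689.

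Csf1r, the receptor for the macrophage growth factors CSF1 and IL-34, had an adjusted p above 0.05 in all 11 comparisons. Its means were 514 ± 101 in vehicle, 615 ± 132 at 8 µM and 588 ± 157 at 200 µM at 24 h. At 48 h they were 585 ± 215 in vehicle, 521 ± 77.7 at 8 µM and 427 ± 64.9 at 200 µM. Its 200 µM effect at 48 h was -0.39 (adjusted p = 0.161), and -0.20 (adjusted p = 0.469) without 48 h vehicle replicate 4. The interval with all arrays ran from -0.80 to 0.02, which takes in the estimate of -0.59 for C1qa. In a list of colony-stimulating factors, their receptors and a related transcription factor 4 genes were tested, namely Csf1, Csf2ra, Csf2rb and Runx1. Csf1, a ligand of Csf1r, fell with 200 µM at both times (-0.27 at 24 h and -0.50 at 48 h) and with 8 µM at 48 h (-0.37). Csf2ra, a chain of the receptor for granulocyte-macrophage colony-stimulating factor, rose with 8 µM at both times (0.41 at 24 h and 0.31 at 48 h) and with 200 µM at 24 h (0.34). Csf2rb and Runx1 did not pass in these 4 comparisons.

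Lyz2 encodes lysozyme, the bacterial cell wall enzyme of macrophages. It had 9880.5, 9191, 9863, 8638 and 9314 in vehicle wells at 48 h, 4103, 3898, 5705, 4805 and 5279.5 in 8 µM wells and 5009.8, 5042, 6126, 5176 and 5418 in 200 µM wells. At 24 h it had 8033, 9758, 8839, 8935 and 9903 in vehicle, 5947, 5821, 6655, 6782 and 4922 at 8 µM and 7409, 6878, 6868, 6108 and 5083 at 200 µM. At both times and both doses every treated well lay below every vehicle well. Its log2 fold changes at 24 h were -0.60 ± 0.10 with 8 µM (adjusted p = 1.79e-05) and -0.50 ± 0.10 with 200 µM (adjusted p = 0.000255). At 48 h they were -0.99 ± 0.10 with 8 µM (adjusted p = 8.62e-10) and -0.81 ± 0.10 with 200 µM (adjusted p = 7.16e-08). It was not shown that the higher dose lowered it further: 200 µM over 8 µM gave 0.10 (adjusted p = 0.868) at 24 h, with an interval of -0.10 to 0.30, and 0.18 (adjusted p = 0.505) at 48 h, with an interval of -0.02 to 0.38. In vehicle wells its change with time was 0.05 (adjusted p = 0.851), which did not pass. At 8 µM it fell with time by 0.35 (adjusted p = 0.0207), a call lost when any 1 of 4 arrays of that dose was left out (24 h replicates 3 and 4, 48 h replicates 1 and 2), with adjusted p between 0.0685 and 0.0913. The change of the 8 µM effect between the times was -0.39 (adjusted p = 0.187). On the rat genome Lyz2 (chromosome 7, 54792715 to 54798060, GRCr8) lies 12362 bases from the related lysozyme gene Lyc2, and the files do not tell whether the probe set also reads that copy.

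**Figure D3:**
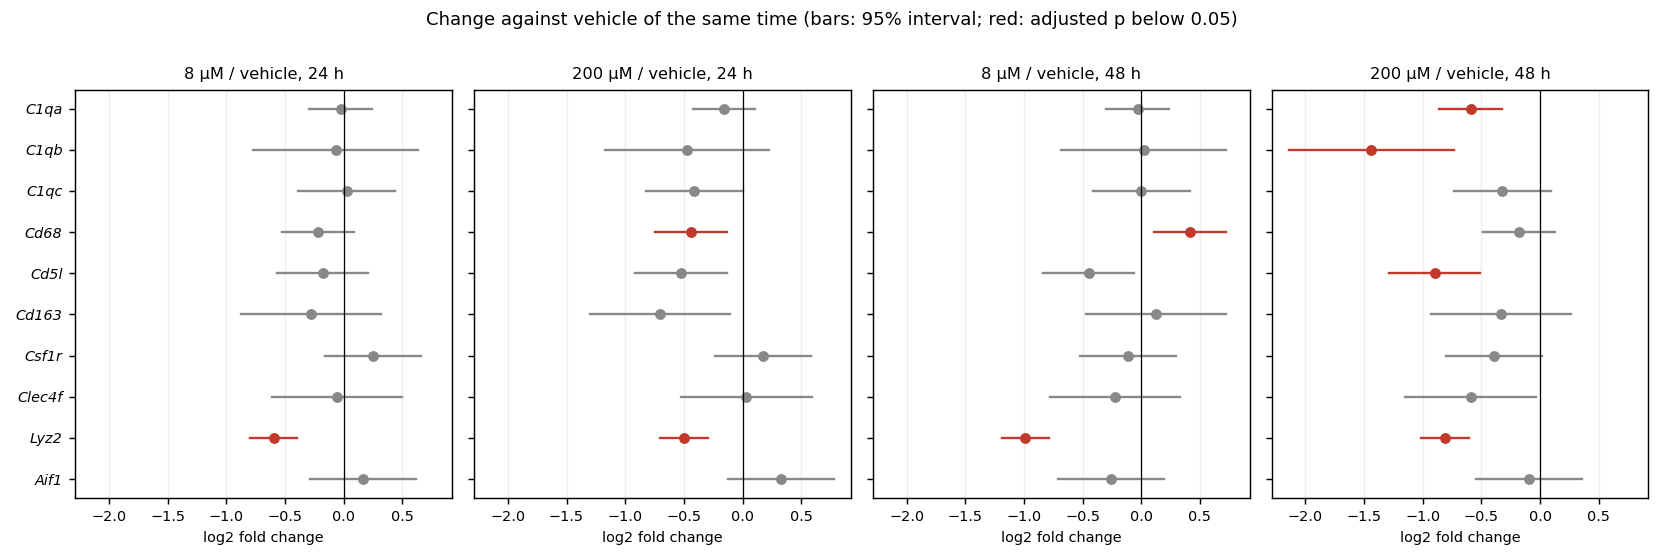
Log2 fold change of each marker against the vehicle of its time (horizontal axis), with 95% intervals, for 8 µM and 200 µM at 24 h and 48 h. Red marks an adjusted p below 0.05. Lyz2 is red and below 0 in all 4 panels, C1qa, C1qb and Cd5l only with 200 µM at 48 h, and Cd68 is red on opposite sides of 0 in 2 panels.

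Cd68, a lysosomal membrane glycoprotein of macrophages, gave calls in both directions. At 48 h it had 1131, 912, 1377, 1531 and 1207 in vehicle wells, 2234, 1535, 1778, 1225 and 1516 in 8 µM wells and 1009, 1188, 987, 1231 and 953 in 200 µM wells. At 24 h it had 2013, 2100.0, 1474, 2169.8 and 1624 in vehicle, 1769, 1691, 1609.5, 1114 and 1918 at 8 µM and 1569, 1339.7, 1187, 1231 and 1521 at 200 µM. The wells of treated and vehicle groups overlapped in all 4 comparisons. Cd68 rose with 8 µM at 48 h by 0.42 ± 0.15 (adjusted p = 0.0358), fell with 200 µM at 24 h by 0.44 ± 0.15 (adjusted p = 0.0354), and fell by 0.60 at 200 µM over 8 µM at 48 h (adjusted p = 0.0194). These calls were fragile. The first was lost without 48 h 8 µM replicate 1 or 3 or vehicle replicate 1, 2 or 5, with adjusted p between 0.053 and 0.144. The second was lost without 24 h 200 µM replicate 2, 3 or 4 or vehicle replicate 1, 2 or 4, with adjusted p between 0.0625 and 0.102. The third was lost without 48 h 200 µM replicate 3 or 5 or 8 µM replicate 1 or 3, with adjusted p between 0.0549 and 0.0881. In vehicle Cd68 fell with time by 0.61 ± 0.15 (adjusted p = 0.00989), a call that held when each array was left out in turn.

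Aif1 encodes IBA1, a calcium and actin binding protein of macrophages and microglia. It had 848, 826, 715, 887 and 797 in vehicle wells at 24 h, 941, 943, 695, 1201 and 855 in 8 µM wells and 889, 1081, 921, 926 and 1366 in 200 µM wells. All 200 µM wells were above all vehicle wells, by 0.33 (adjusted p = 0.374), which did not pass. Such a separation upward was seen in 7.65% of all probe sets in that comparison. At 48 h the signal was 787, 699.5, 785, 2754 and 844 in vehicle wells, with replicate 4 far above the others. At 48 h it ranged over 739 to 884 at 8 µM and 833 to 1223 at 200 µM. Without vehicle replicate 4 the standard error of the 200 µM effect at 24 h was 0.124, against 0.221 with it, and the estimate was 0.33 (adjusted p = 0.0544). At 48 h the Aif1 estimates with all arrays were -0.26 at 8 µM and -0.09 at 200 µM, and without replicate 4 they were 0.10 (adjusted p = 0.626) and 0.27 (adjusted p = 0.136). With time in vehicle Aif1 was at 0.30 with all arrays and -0.06 (adjusted p = 0.869) without that one. Its second probe set was below the filter, with group means between 11.2 and 43.2.

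The 2 doses were compared directly at each time. At 48 h 3 of 10 members were lower at 200 µM than at 8 µM (C1qa, C1qb and Cd68), where 1.63% of all probe sets were lower, and no member was higher. The C1qa call was lost without 8 µM replicate 4 (adjusted p = 0.0502) and the C1qb call without 200 µM replicate 2 (adjusted p = 0.0501). With each array centred on its median, none of the 3 passed, with adjusted p between 0.0701 and 0.0788. At 24 h no member passed, where 1.98% of all probe sets did. By an unadjusted p below 0.05 the count there was 1 of 10, where 10.7% of all probe sets had one. The difference of a dose's effects at 48 h and 24 h was tested too. At 8 µM no member passed that test, where 1.78% of all probe sets did. At 200 µM no member passed either, where 0.785% of all probe sets were higher and 0.714% lower. In each of these tests of the difference 2 members had an unadjusted p below 0.05, where 12.2% of all probe sets did at 8 µM and 11.6% at 200 µM. It was therefore not shown that the 200 µM effect on C1qa, C1qb or Cd5l differed between the times.

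Summed over the 10 probe sets, the signal averaged 15165 ± 1139.7 in vehicle wells, 10325 ± 680.1 in 8 µM wells and 9554 ± 789 in 200 µM wells at 48 h (SD, n = 5). Lyz2 was the largest single part of this sum in each group. Without Lyz2 it averaged 5787 ± 1363 in vehicle, or 5238 ± 685 without replicate 4 (n = 4), then 5567 ± 236 at 8 µM and 4200.1 ± 353 at 200 µM. At 24 h the sum without Lyz2 averaged 7669 ± 693 in vehicle, 7388 ± 437 at 8 µM and 6562 ± 241 at 200 µM. These sums are descriptions, since a bright probe set weighs more in them.

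C1q chains, Cd5l and Cd163, which are only part of the set, moved together across the groups. Among wells of a group their correlations scattered around 0. Among C1qa, C1qb, C1qc, Cd5l and Cd163 the 10 pairs had Pearson correlations of log2 signal between 0.632 and 0.867 over 29 arrays, those without 48 h vehicle replicate 4. After each group's mean was taken out, the same pairs had correlations between -0.156 and 0.48, with a median of 0.0321. Clec4f, which is not among the 5 genes, had 0.619 with C1qa, 0.558 with C1qb, 0.452 with C1qc, 0.613 with Cd5l and 0.435 with Cd163 over the 29 arrays. Pairs with Lyz2 lay between -0.278 and 0.47 over the 29 arrays. All 45 pairs of members lay between -0.278 and 0.867 there, with a median of 0.452. Aif1 did not move with C1qa, C1qb, C1qc, Cd5l and Cd163. It had -0.0447 with C1qa, -0.0556 with C1qb, -0.118 with C1qc, 0.0612 with Cd5l and -0.189 with Cd163. These correlations share the groups' differences in dose and time and carry no test. No rule set beforehand picked C1qa, C1qb, C1qc, Cd5l and Cd163 out of the set, so the range of their pairs describes that choice.

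The genes most like each member over the 30 arrays were a mixture. For Cd5l they were Ctss, the lysosomal protease cathepsin S (r = 0.922), the endothelial hyaluronan receptor Lyve1 (0.91) and Itih2, a hepatocyte plasma protein (0.906). For C1qb they were Serpina4 (0.884), Dpt (0.883) and Ces1c (0.877), of which Serpina4 and Ces1c encode secreted liver proteins. For Lyz2 they were Gda, guanine deaminase (0.932), Kng2l1 (0.927) and Rarres1 (0.926). No member was among the 3 genes most like any of these 3. Over the 29 arrays the first gene for C1qb was Ctss (0.885) and for Cd5l Slc33a1 (0.949).

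Other macrophage, leukocyte and cell type markers were read as lists beside the set, with the brightest probe set standing for each gene. With 200 µM at 48 h, 13.8% of all probe sets fell and 12.6% rose, and without 48 h vehicle replicate 4 these shares were 14.8% and 13.8%. Of 8 other macrophage markers tested, 2 fell and none rose in that comparison, and the list's median was -0.265. More of this list fell at 8 µM, where 4 of 8 fell at 48 h (median -0.326) and 3 of 8 at 24 h (median -0.306). The shares of all probe sets that fell there were 15.7% and 10.5%. With 200 µM at 24 h 1 of 8 fell (median -0.307), where 10.1% of all did. None of the 8 rose in these comparisons with all arrays. Sirpa, the receptor for the CD47 signal against engulfment, fell in all 4 treated comparisons. Its log2 fold changes were -0.44 at 8 µM and -0.36 at 200 µM at 24 h, and -0.76 at 8 µM and -1.03 at 200 µM at 48 h. Gpnmb, a lysosomal glycoprotein, fell by 0.49 with 200 µM at 48 h. With time in vehicle 2 of the 8 rose and 1 fell, where 3.17% of all probe sets rose and 3.42% fell, and the median was -0.00421. Those that rose were Gpnmb at 0.52 (adjusted p = 0.00548) and Sirpa at 0.35 (adjusted p = 0.041), and without 48 h vehicle replicate 4 Sirpa was at 0.31 (adjusted p = 0.0746). Cd14, the lipopolysaccharide co-receptor, which hepatocytes also express, fell with time in vehicle by 0.48 and was at -0.21 (adjusted p = 0.0562) with 200 µM at 48 h. Without 48 h vehicle replicate 4 it was at -0.30 (adjusted p = 0.000591) with 200 µM at 48 h, and in that comparison the list then had 3 that fell and 1 that rose.

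Of 15 leukocyte genes 3 fell with 200 µM at 48 h (Ctss at -0.77, Fcer1g at -0.71 and Arhgdib at -0.40) and none rose, with a median of -0.38. Without 48 h vehicle replicate 4, 2 fell, the median was -0.216, and Arhgdib was at -0.18 (adjusted p = 0.181). Cybb, a subunit of the phagocyte oxidase, was counted by its brighter probe set, at -0.29 (adjusted p = 0.344), while its dimmer one was at -1.04 (adjusted p = 0.000849). With 8 µM at 48 h 2 of the 15 rose and 2 fell, and without that array 2 rose and none fell. Lcp1, the actin bundling protein L-plastin, rose with 8 µM at 48 h, at 0.52 (adjusted p = 0.0294), and fell with 200 µM at 24 h, at -0.65 (adjusted p = 0.00846). Lcp1 also rose with time at 8 µM (1.43) and at 200 µM (0.73). The other gene that rose was Plek, pleckstrin, at 1.40 (adjusted p = 0.0478). Ctss fell by 0.54 with time in vehicle.

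Of 7 genes of antigen presentation by MHC class II, 1 fell with 200 µM at 48 h (RT1-Db1, at -0.56), a share near that of all probe sets. Cd74, the invariant chain, fell with time in all 3 arms, at -1.33 in vehicle, -2.07 at 8 µM and -1.91 at 200 µM. The 6 genes of the rest of the classical complement pathway and of C1q binding, several of them made by hepatocytes, had 4 that fell with 200 µM at 48 h: the C1q-bound proteases C1r at -1.03 and C1s at -1.40, the inhibitor Serping1 at -0.36 and the central component C3 at -1.13. These 4 also fell with 8 µM at 48 h, at -1.21 (C1r), -1.58 (C1s), -0.37 (Serping1) and -1.10 (C3), and at both doses at 24 h. The C1q chains were at -0.03 (C1qa), 0.02 (C1qb) and 0.00 (C1qc) with 8 µM at 48 h, and without 48 h vehicle replicate 4 at -0.02 (C1qa), -0.22 (C1qb) and -0.23 (C1qc). Whether C1q and its proteases differ in their response to 8 µM was not tested. Of 12 macrophage cytokine genes tested, Tnf, which encodes tumour necrosis factor, fell at 48 h, at -1.76 with 8 µM and -1.72 with 200 µM. Il18, interleukin 18, was at -0.97 with 8 µM and -0.68 with 200 µM, and both passed. Tnf did not pass without 48 h vehicle replicate 4, at -1.49 (adjusted p = 0.0582) with 8 µM and -1.44 (adjusted p = 0.068) with 200 µM, and in that last comparison 2 of the list fell and 1 rose. Il1rn, the interleukin 1 receptor antagonist, fell with time in vehicle by 2.41.

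**Figure D4:**
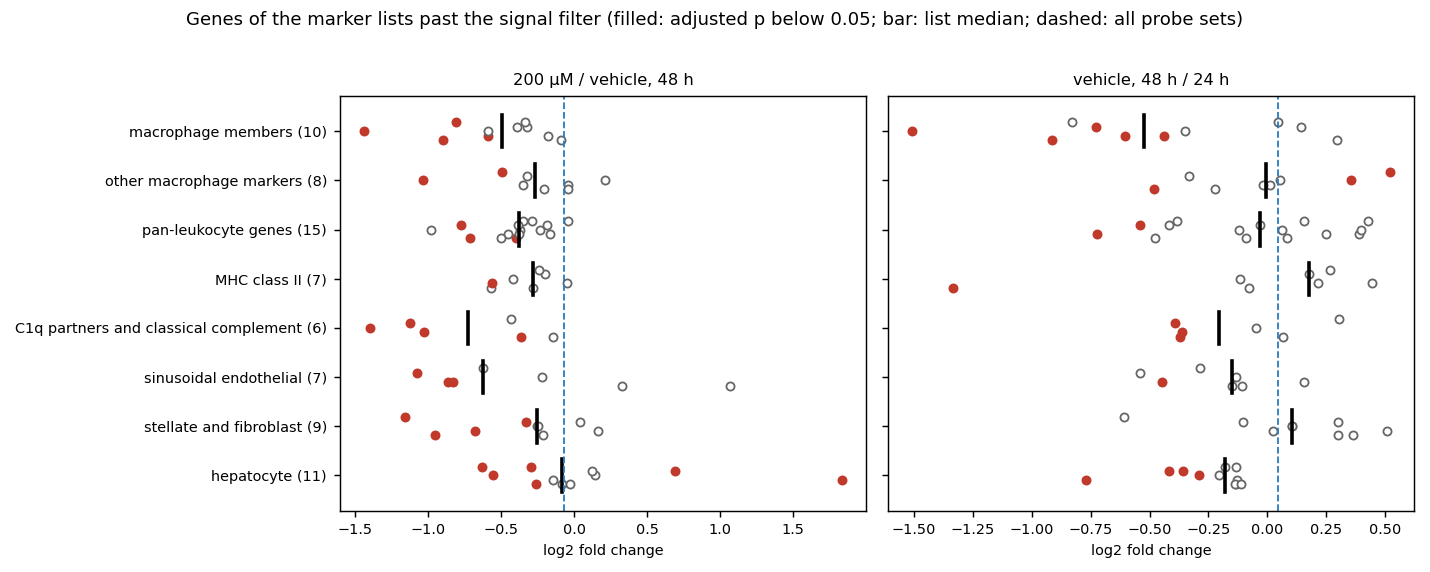
Log2 fold change of each gene past the filter in 8 marker lists (rows, number of genes in brackets), for 200 µM over vehicle at 48 h and for vehicle at 48 h over 24 h. Filled points have an adjusted p below 0.05, black bars are list medians and the dashed line is the median of all probe sets. The macrophage members have medians of -0.49 and -0.523, and the hepatocyte list of -0.0814 and -0.181.

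Markers of other liver cells moved beside the set in part. Of 7 sinusoidal endothelial genes 3 fell with 200 µM at 48 h (Lyve1 at -1.07, Tek at -0.86 and Fcgr2b at -0.83), with a list median of -0.623. Without 48 h vehicle replicate 4, 2 fell and 1 rose, and the list median was -0.337, against -0.568 for the 10 members. Fcgr2b, an inhibitory Fc receptor of endothelium and macrophages, was lower at 200 µM than at 8 µM, at -0.53 at 24 h and -0.95 at 48 h. Of 9 stellate cell and fibroblast genes 4 fell with 200 µM at 48 h, with a median of -0.256. Without that array 1 fell and 1 rose, with a median of -0.0401. None of the 3 T and NK cell, 2 B cell and 1 neutrophil probe sets tested passed in any of the 4 treated comparisons or with time in vehicle. Of 2 bile duct genes 1 fell with 200 µM at 48 h (Krt19, at -1.89), and without that array Epcam passed too, at -0.31 (adjusted p = 8.6e-05). Of 11 genes of other tissues 1 fell (Lhb, at -0.46), a share below that of all probe sets, and without that array Lhb was at -0.26 (adjusted p = 0.199). This list's median was -0.403 with all arrays, near the -0.49 of the members, and -0.03 without that array. Of 11 hepatocyte genes 2 rose and 4 fell with 200 µM at 48 h, with a median of -0.0814. The part of other non-hepatocyte cells in the differences of the 10 members was not tested.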

How the data were processed

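Total RNA of 30 wells in 6 groups of n = 5 was measured on rat expression arrays. The deposited values are intensity values on a linear scale, made by the authors with MAS5, per the submitters' processing notes. The version, scaling target and chip definition are not given in the sources used here. The trimmed mean signal, taken without the highest and lowest values, was already common to the arrays (1500.45 to 1500.7), so no further scaling was applied. The medians were not common, with 765 on 48 h vehicle replicate 4 against 385 to 439 on the 29 others. The number of arrays limits the precision.

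Probe sets were named from the platform annotation, where 20832 had 1 symbol, 436 had several, 9780 had none and 57 were controls. The log2(signal + 16) of each probe set was used, which understates the change of dim probe sets. Probe sets entered the fit when at least 5 of the 30 arrays, of any group, had a signal over 281.361, the 40th percentile of all values. A linear model of the 6 groups over all 30 arrays was fitted with limma 3.58.1 under R 4.3.3 (eBayes with a variance trend), with two-sided tests of 11 contrasts and Benjamini-Hochberg adjustment over 21282 probe sets. Fold changes carry the standard error of the fit and signals the SD over wells. The fit was tested on simulated data.

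The members and marker lists were chosen with earlier results of these data known, so counts over them are given beside the share of all probe sets and carry no test. Beyond the members, up to 4 genes a list are named by their moderated statistic against vehicle. Tek, Plek, Cybb and the single-dose values of Il18 were chosen after their values were seen. No rule set beforehand picked C1qa, C1qb, C1qc, Cd5l and Cd163 as the genes whose correlations are given together. Replicate numbers follow the order of the arrays, and no label pairs wells across groups. Deviations from group means had a median correlation of 0.0131 within a run of 6 arrays (75 pairs), against -0.00191 for other pairs (300). The β-actin ratio, however, was lower in the last run than in the first in every group. At 8 µM for 48 h it was 2.74 against 3.83. A median near 0 over all probe sets therefore does not show that arrays of a run share nothing. The alternatives were median centring, quantile normalization, a pseudocount of 1 or 64, a filter at the 60th percentile (637.335) or none, and 1 probe set per gene. Others were a fit of only the groups compared, a run block, array weights, eBayes without the trend, a fold of 1.5 on top of the adjusted p, and leaving out each array. List counts without 48 h vehicle replicate 4 were added after seeing the data. Promoter windows and gene positions are RefSeq's on GRCr8. Tables were made with Python 3.11.15.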

Additional observations from a re-analysis of the deposited data

Results flagged for a closer look

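In 6 of 72 groups of 5 wells, a single well of a member's probe set stood apart from the others by more than 0.71 of the group's range. For independent normal values about 1 in 20 groups would show such a gap. The gaps were taken on linear signals, and probe sets of an array are not independent, so the count carries no test. Replicate 4 of the 48 h vehicle group accounted for 2 of them, with 0.93 for the tested probe set of Aif1 and 0.921 for the dim second probe set of Cd5l. In the 24 h vehicle group replicate 1 was high for C1qa (0.786), replicate 5 for the tested probe set of Cd5l (0.723) and replicate 4 for its dim second probe set (0.823). In 200 µM wells at 48 h replicate 3 was high for Aif1 (0.766).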

How the results depend on the processing

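Of 4488 comparisons of a member's fold change with its value under an alternative, 4292 kept direction and side of the threshold, 80 no longer passed, 25 newly passed and 91 changed sign. None of those 91 passed before or after (doses are against vehicle unless said), and 63 of them came from leaving out 1 array, 12 from 48 h vehicle replicate 4. With array weights the values that changed sign were -0.27 (C1qb), -0.20 (C1qc), -0.15 (Cd163), 0.046 (Csf1r), 0.0042 (Clec4f) and 0.075 (Aif1) for 8 µM at 48 h, 0.25 (Aif1) for 200 µM at 48 h, -0.033 (Csf1r) and -0.044 (Aif1) for time in vehicle, 0.00040 (C1qa), -0.16 (C1qb) and 0.048 (Clec4f) for the difference of the 8 µM effects and -0.15 (C1qc) for the difference of the 200 µM effects. After median centring the values that changed sign were 0.0068 (C1qa) for 8 µM at 24 h, 0.16 (C1qa) and 0.081 (Csf1r) for 8 µM at 48 h, 0.075 (Aif1) for 200 µM at 48 h, -0.0036 (Csf1r) and -0.098 (Lyz2) for time in vehicle and 0.15 (C1qa) and 0.13 (C1qc) for the difference of the 8 µM effects. After quantile normalization the values that changed sign were 0.012 (C1qa) for 8 µM at 24 h, 0.17 (C1qa) and 0.061 (Csf1r) for 8 µM at 48 h and 0.15 (C1qa) and 0.15 (C1qc) for the difference of the 8 µM effects. With a pseudocount of 64 the values that changed sign were -0.021 (C1qb) and -0.0040 (C1qc) for 8 µM at 48 h. Without 1 array at a time, the values whose sign changed ran for 8 µM at 24 h over -0.062 to 0.016 (C1qa), -0.21 to 0.10 (C1qb), -0.050 to 0.088 (C1qc) and -0.18 to 0.076 (Clec4f). For 200 µM at 24 h they ran over -0.093 to 0.17 (Clec4f). For 8 µM at 48 h they ran over -0.10 to 0.025 (C1qa), -0.30 to 0.29 (C1qb), -0.23 to 0.14 (C1qc), -0.18 to 0.27 (Cd163), -0.22 to 0.077 (Csf1r), -0.45 to 0.055 (Clec4f) and -0.38 to 0.10 (Aif1). For 200 µM at 48 h they ran over -0.22 to 0.27 (Aif1). For 200 µM over 8 µM at 24 h they ran over -0.20 to 0.052 (Csf1r). For time in vehicle they ran over -0.046 to 0.25 (Csf1r) and -0.063 to 0.43 (Aif1). For time at 8 µM they ran over -0.10 to 0.13 (Cd68). For the difference of the 8 µM effects they ran over -0.0746 to 0.052 (C1qa), -0.23 to 0.36 (C1qb), -0.25 to 0.11 (C1qc) and -0.39 to 0.11 (Clec4f). For the difference of the 200 µM effects they ran over -0.14 to 0.22 (C1qc). The number of the 10 members that passed was unchanged by the block for runs of 6 arrays in all 11 contrasts (1, 2, 2, 4, 0, 3, 5, 5, 5, 0 and 0). Leaving out 1 array at a time gave 1 to 4 members for 200 µM over vehicle at 24 h, 1 to 2 for 8 µM and 4 to 6 for 200 µM over vehicle at 48 h, 2 to 3 for 200 µM over 8 µM at 48 h, and 3 to 5 for time in vehicle, in 8 µM and in 200 µM wells. The other contrasts kept their counts of 1 (8 µM over vehicle at 24 h) and 0. For 200 µM over vehicle at 24 h, 1 passed without the filter, 5 when only the groups compared were fitted, 4 with array weights and 0 with a fold of at least 1.5 added. For 8 µM over vehicle at 48 h, 1 passed when only those groups were fitted and 1 with the added fold. For 200 µM over vehicle at 48 h, 2 passed when only those groups were fitted. For 200 µM over 8 µM at 48 h, 0 passed after median centring. For time in vehicle, 0 passed when only those groups were fitted. For time at 8 µM, 3 passed after quantile normalization, 2 after median centring and 3 with the added fold. Median centring moved the median of all probe sets by up to 0.192 (log2), for 8 µM over vehicle at 48 h, and quantile normalization by up to 0.0946. Lyz2 passed in all 4 comparisons with vehicle under each of the 41 alternatives, the added fold apart. Causes of these differences were not tested. At 48 h most signals of Cd163, C1qb and Cd5l lay below the filter of 281.361. Cd163 ranged over 70.9 to 285 in vehicle, 180.1 to 241 at 8 µM and 72.3 to 198 at 200 µM, and C1qb over 40.1 to 155 at 200 µM. The tested probe set of Cd5l ranged over 223 to 533 in vehicle, 209 to 263 at 8 µM and 143 to 191 at 200 µM.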
